A study of Bos taurus with 14 samples.

Results

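The interferon-stimulated genes described here are 37 genes, chosen by symbol, that are known to be induced by interferons. Of these, 35 had a row with reads among the 18078 gene rows of a muscle count table, and BST2 and SAMD9, which matched no row by symbol, were not analysed here. Of the 35 members with reads, 33 passed the filter on low counts and were among the 12187 genes tested, while OAS2 (130 reads over all animals) and IFIT2 (155 reads) did not. The RNA came from longissimus dorsi, a large back muscle, of 14 female cattle (Bos taurus) slaughtered at postnatal day 485. The dams of the 7 restricted offspring were underfed between gestational day 158 and birth, and the labels give their allowance as 70% of the NRC requirement in one place and as 50% in another. The dams of the 7 control offspring received 100% over that period. All offspring were managed alike, with free access to feed from postnatal day 301, and the labels name neither sire nor health status. Total counts per animal ran from 13631018 to 17325779, and the 9 skeletal muscle fibre markers found summed to between 143968 and 200437 CPM (counts scaled for depth) in every animal.

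Interferon-stimulated genes are the effector arm of antiviral defence. Type I interferons bind the receptor pair IFNAR1 and IFNAR2, the kinases JAK1 and TYK2 activate STAT proteins, and STAT2 joins IRF9 in the complex ISGF3, which binds response elements in the promoters of the genes. Their products sense viral RNA, block translation or replication and amplify or damp the signal. Outside infection and inflammation most of them are transcribed at low levels, and in human muscle a strong signature of these genes is best known from the inflammatory disease dermatomyositis.

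The members were high in 3 of the 14 animals. These 3 were chosen by a measured value, an ISG15 level of at least 10 CPM, and the members are genes known to move with ISG15, so the contrast between the 3 and the other 11 animals is a description without a test. ISG15 (ENSBTAG00000014707), the ubiquitin-like protein that is attached to other proteins during the response, stood at 35.4 CPM in restricted 7, 16.9 CPM in control 7 (269 reads) and 12.4 CPM in restricted 4 (180 reads). In the other 11 animals it ran from 0.389 CPM (6 reads in restricted 3) through a median of 1.16 to 2.92 CPM (49 reads in control 6). Restricted 4, at 12.4 CPM, was the nearest animal above the threshold of 10 CPM, and control 6, at 2.92 CPM, was the nearest below it. Both diets were represented among the 3 animals. The first letter of their sample titles was Y and the last letter was A for control 7 and restricted 4 and B for restricted 7, and the labels do not say what these letters mean.

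In 28 of the 33 tested members, all 3 animals lay above all of the other 11. Over all 12187 tested genes this held for 94 genes, or 0.771%, and the opposite pattern for 80. The 5 tested members that overlapped were IFI6, IFI35, LGALS3BP, STAT2 and TRIM25. Of the 2 members under the filter, OAS2 also had the 3 animals on top and IFIT2 overlapped. Since the animals were selected on one member, these shares describe the set and test nothing. The heat map of the members by animal shows the block of high values.

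**Figure D1:**
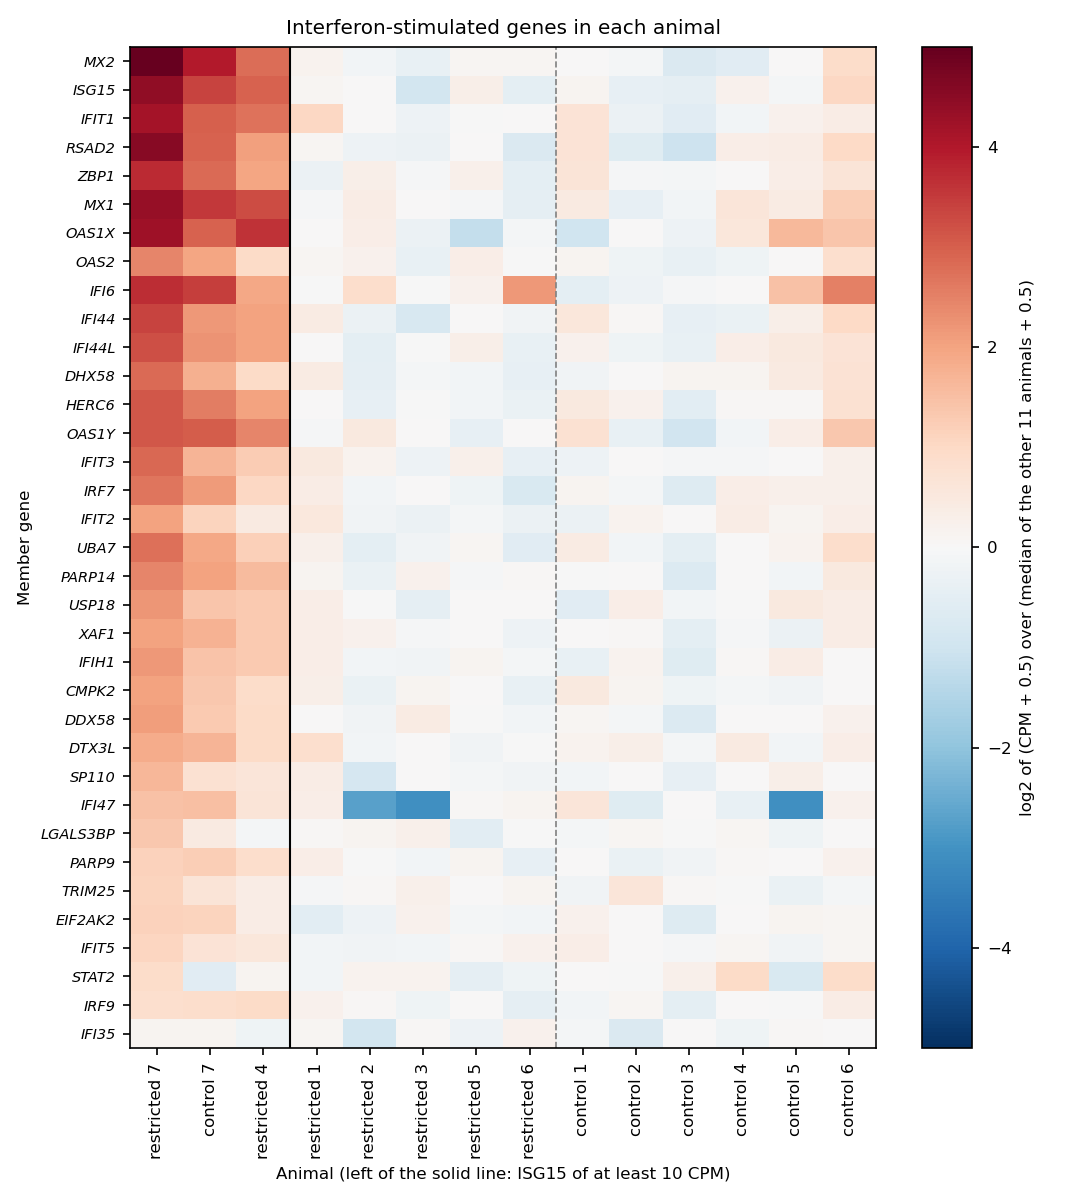
Each row is 1 of the 35 members with reads and each column 1 animal; the colour is log2 of the CPM plus 0.5 over the median of the 11 animals with ISG15 under 10 CPM plus 0.5. The 3 columns left of the solid line are restricted 7, control 7 and restricted 4, which are red in most rows, while STAT2 and IFI35 near the bottom are pale in at least 1 of these columns.

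The 3 animals also kept an order among themselves. Restricted 7 was highest, control 7 next and restricted 4 lowest of the 3 in 29 of the 35 members. This is also the order of ISG15, by which the animals were chosen. The share of all tested genes with this order was not taken. Control 7 led in 3 members (IFI47, PARP9 and IFI35), restricted 4 stood above control 7 in OAS1X and STAT2, and in IRF9 restricted 4 led. Set against the median of the other 11 animals, the member ratios ran from 1.096 to 61.0 with a median of 7.08 in restricted 7. They ran from 0.647 to 23.8 with a median of 4.12 in control 7, and from 0.850 to 14.4 with a median of 2.79 in restricted 4. The same median over all tested genes was 0.9997, 0.999 and 1.001 in these animals. A ratio of at least 2 was reached by 32 members in restricted 7, 28 in control 7 and 24 in restricted 4. How many of all tested genes reached that ratio in these animals was not counted, so these counts only describe the members.

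**Figure D2:**
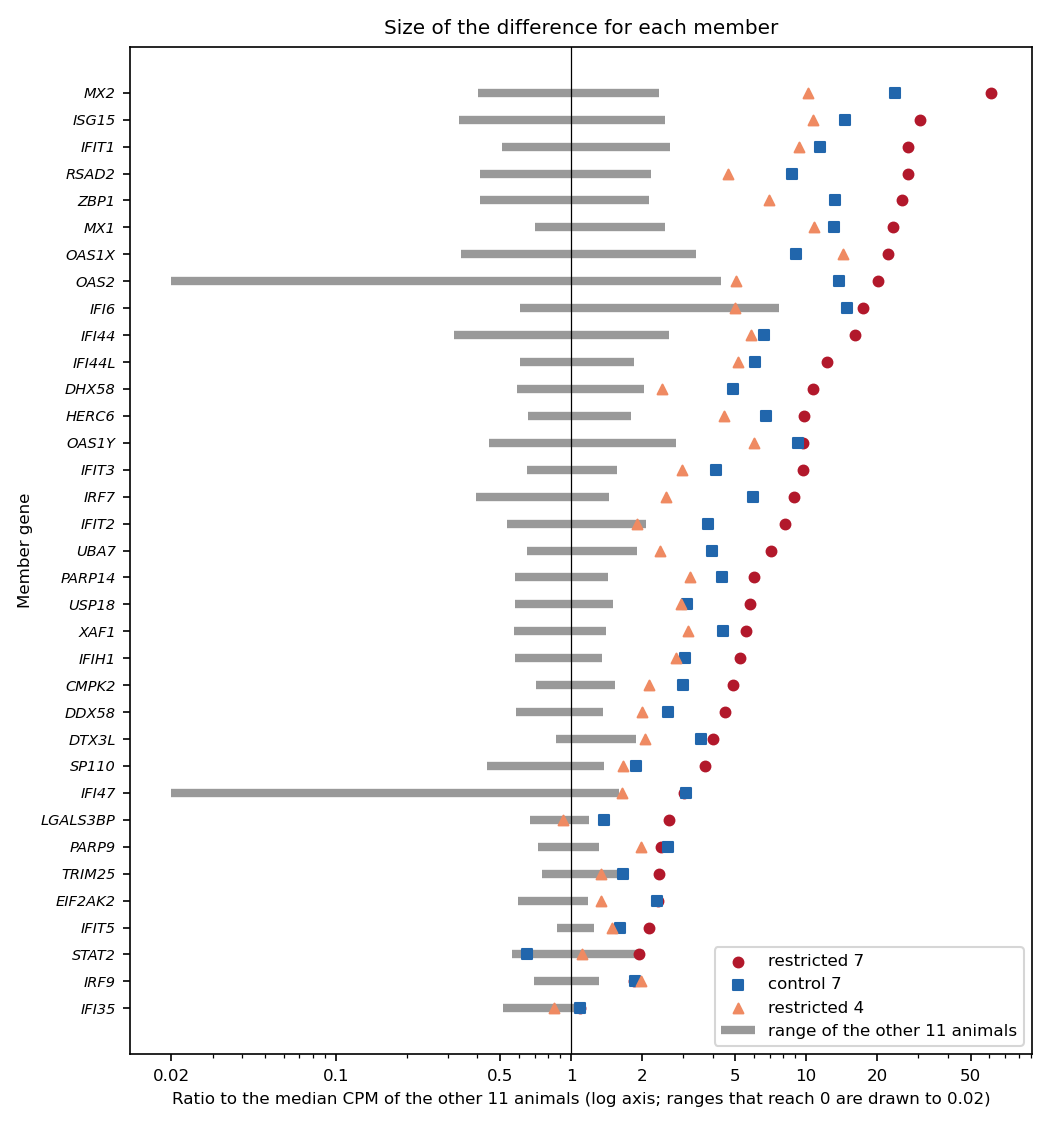
Points give the CPM of restricted 7, control 7 and restricted 4 over the median of the other 11 animals for each member, on a log axis, and grey bars give the range of those 11. Ratios in restricted 7 run from 61.0 for MX2 at the top to 1.096 for IFI35 at the bottom, and all 3 points of STAT2 and of IFI35 lie inside the grey bars.

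Among enzymes that attach or remove ISG15, the members UBA7, HERC6 and USP18 were high together with it. UBA7, the enzyme that activates ISG15, was at 51.0 CPM in restricted 7, 28.6 in control 7 and 17.1 in restricted 4, against 4.69 to 13.7 CPM with a median of 7.2 in the other 11. HERC6, which ligates ISG15 to its targets in the mouse, was at 30.8, 21.2 and 14.1 CPM in those 3 animals, against 2.05 to 5.65 CPM with a median of 3.14. USP18, which removes ISG15 and also damps signalling at the interferon receptor, was at 9.79, 5.28 and 4.97 CPM, against 0.982 to 2.56 CPM with a median of 1.70. None of these 3 enzymes overlapped between the 3 animals and the rest. UBE2L6, another gene of this route but outside the members, did overlap. It was at 2.94, 5.22 and 2.90 CPM in restricted 7, control 7 and restricted 4, against 1.77 to 5.67 CPM with a median of 3.03. HERC5, another HERC gene outside the members, did not overlap, at 9.45, 5.59 and 2.76 CPM against 0.967 to 2.38 CPM with a median of 1.57. In restricted 7 the ratio to the median of the others was 30.5 for ISG15 itself, 9.81 for HERC6, 7.08 for UBA7 and 5.76 for USP18.

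The MX genes, which encode GTPases that trap viral nucleocapsids, were among the members with the widest separation. MX1 (ENSBTAG00000030913) was at 83.4 CPM in restricted 7, 46.8 in control 7 and 38.6 in restricted 4, against 2.52 to 8.99 CPM with a median of 3.57 in the other 11. MX2 (ENSBTAG00000008471) was at 55.2, 21.5 and 9.19 CPM in those animals, against 0.362 to 2.14 CPM with a median of 0.904. MX2 had the largest ratio of all 35 members in restricted 7 (61.0) and in control 7 (23.8), but in restricted 4 its ratio of 10.2 stood behind those of OAS1X, MX1 and ISG15. With 0.5 CPM added to both, the lowest of the 3 animals was 4.12 times the highest of the other 11 for MX1, 3.78 times for ISG15, 3.66 times for MX2 and 3.13 times for IFIT1.

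The OAS genes encode synthetases of the short adenylate chains that activate the nuclease RNase L, and cattle carry several OAS1 copies. OAS1X (ENSBTAG00000053807) was at 61.7 CPM in restricted 7, 25 in control 7 and 39.7 in restricted 4, against 0.945 to 9.42 CPM with a median of 2.76 in the other 11. OAS1Y (ENSBTAG00000039861) was at 35.3, 33.6 and 21.7 CPM, against 1.63 to 10.1 CPM with a median of 3.63. OAS2 stayed low everywhere, at 3.06, 2.07 and 0.760 CPM against 0 to 0.655 CPM with a median of 0.151. The 0 of OAS2 in control 3 allows a level of up to 0.181 CPM, which is 3 reads, and this bound covers counting error only. The balance of the 2 OAS1 copies differed between animals. OAS1X was 1.75 times OAS1Y in restricted 7, 0.744 times in control 7 and 1.83 times in restricted 4, and the ratio ran from 0.170 in control 1 to 1.98 in control 5 among the others. How reads that match more than 1 OAS1 copy were counted is not given in the sources used here, so the split between the copies is uncertain.

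The IFIT proteins bind viral RNA ends and hold back translation, and the members of the family behaved unequally. IFIT1 (ENSBTAG00000007881) was at 25.8 CPM in restricted 7, 10.9 in control 7 and 8.91 in restricted 4, against 0.483 to 2.51 CPM with a median of 0.952 in the other 11. IFIT3 was at 13.1, 5.59 and 4.01 CPM, against 0.884 to 2.13 CPM with a median of 1.36. IFIT5 was at 41.1, 30.9 and 28.7 CPM, against 16.8 to 24.1 CPM with a median of 19.2. IFIT5 was thus read in every animal and its ratios in the 3 were 2.14, 1.61 and 1.5, while those of IFIT1 were 27.1, 11.4 and 9.36. IFIT2 had 52 reads in restricted 7 and few elsewhere, at 2.94, 1.38 and 0.691 CPM in the 3 animals against 0.194 to 0.753 CPM in the rest. Its value in restricted 4 lay below that of restricted 1.

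RSAD2, or viperin, makes a nucleotide that stops viral polymerases, and CMPK2, its neighbour on the chromosome, is a nucleotide kinase. RSAD2 (ENSBTAG00000016061) was at 83.5 CPM in restricted 7, 27.0 in control 7 and 14.3 in restricted 4, against 1.27 to 6.73 CPM with a median of 3.09 in the other 11. CMPK2 was at 8.94, 5.47 and 3.94 CPM, against 1.29 to 2.81 CPM with a median of 1.83. Both were fully separated, yet the ratio in restricted 7 was 27.1 for RSAD2 and 4.90 for CMPK2.

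IFI44 and IFI44L, another pair of neighbours, had similar ratios. IFI44 was at 13.2, 5.41 and 4.77 CPM in restricted 7, control 7 and restricted 4, against 0.259 to 2.14 CPM with a median of 0.819 in the others, and IFI44L was at 17, 8.36 and 7.11 CPM, against 0.838 to 2.56 CPM with a median of 1.38. IFI6, a small membrane protein that blocks flavivirus replication, was less clean. It was at 22.2, 19 and 6.35 CPM in the 3 animals and ran from 0.772 to 9.76 CPM with a median of 1.27 in the other 11. Control 6 (9.76 CPM) and restricted 6 (7.48 CPM) exceeded restricted 4, and control 5 followed at 4.37 CPM. Restricted 6 lay above the median of the 11 animals in only 8 of the 35 members.

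The sensors of foreign nucleic acid described next were fully separated, while the ubiquitin ligase TRIM25 overlapped. DDX58, which encodes RIG-I, was at 26.7 CPM in restricted 7, 15.1 in control 7 and 11.8 in restricted 4, against 3.44 to 8.04 CPM with a median of 5.88 in the other 11. IFIH1, which encodes the long double-stranded RNA sensor MDA5, was at 13.1, 7.67 and 6.98 CPM, against 1.45 to 3.39 CPM with a median of 2.5. DHX58, which encodes their regulator LGP2, was at 9.34, 4.27 and 2.14 CPM, against 0.516 to 1.79 CPM with a median of 0.875. ZBP1, a sensor of Z-form nucleic acid that can trigger cell death, had larger ratios than these, with 25.7, 13.2 and 6.93 in the 3 animals. It was at 12.8, 6.60 and 3.45 CPM, against 0.204 to 1.07 CPM with a median of 0.499. EIF2AK2, the kinase PKR that stops translation, was at 9.96, 9.87 and 5.73 CPM, against 2.54 to 5.05 CPM with a median of 4.26, so restricted 4 was only slightly above control 1. TRIM25, the ubiquitin ligase that activates RIG-I, was at 6.85, 4.84 and 3.87 CPM, against 2.19 to 4.67 CPM with a median of 2.90, and control 2 lay above restricted 4.

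Among the transcription factors, IRF7 differed from the subunits of ISGF3. IRF7, which amplifies the production of interferon alpha, was at 9.22 CPM in restricted 7, 6.16 in control 7 and 2.62 in restricted 4, against 0.408 to 1.51 CPM with a median of 1.04 in the other 11. IRF9 was at 16, 16.2 and 17.2 CPM in those 3 animals, against 5.98 to 11.3 CPM with a median of 8.63. IRF9 was thus separated in all 3 animals but at nearly the same level in each, with ratios of 1.85, 1.88 and 1.99. STAT2 was at 12.3, 4.09 and 7.04 CPM, against 3.54 to 12.9 CPM with a median of 6.31. Only control 5 lay below control 7 in STAT2, and control 4 (12.9 CPM) and control 6 (12.4 CPM) lay above restricted 7.

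PARP9, DTX3L and PARP14 stand next to each other in the genome. PARP9 and DTX3L form a ubiquitin ligase complex that promotes interferon signalling, and PARP14 is an ADP-ribosyltransferase. PARP14 was at 26.3 CPM in restricted 7, 19.2 in control 7 and 14.1 in restricted 4, against 2.54 to 6.31 CPM with a median of 4.38 in the other 11. DTX3L was at 14.4, 12.8 and 7.32 CPM, against 3.09 to 6.72 CPM with a median of 3.57, and PARP9 was at 8.15, 8.74 and 6.70 CPM, against 2.45 to 4.46 CPM with a median of 3.39. The genes were each separated, with ratios in restricted 7 of 6.01 for PARP14, 4.03 for DTX3L and 2.40 for PARP9.

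Of the remaining members, XAF1, which promotes cell death, was at 5.83, 4.65 and 3.32 CPM in restricted 7, control 7 and restricted 4, against 0.604 to 1.49 CPM with a median of 1.05 in the other 11. SP110, a nuclear body protein, was at 7.07, 3.58 and 3.18 CPM, against 0.838 to 2.64 CPM with a median of 1.90. Both were separated. IFI47, an interferon-inducible GTPase, was at 11.1, 11.3 and 6.08 CPM, against 0 to 5.89 CPM with a median of 3.68. IFI47 had 0 reads in control 5 and restricted 3, which allows up to 0.226 and 0.195 CPM at 3 reads, and 0.129 CPM in restricted 2, whereas every other animal had at least 2.22 CPM. LGALS3BP, a secreted scavenger receptor protein, was at 30.6, 16.2 and 10.8 CPM, against 7.87 to 13.9 CPM with a median of 11.7. LGALS3BP was thus high in restricted 7 and control 7, while restricted 4 lay below the median of the rest. IFI35, a leucine zipper protein, was at 12.1, 12.1 and 9.39 CPM, against 5.67 to 12.9 CPM with a median of 11.1. In IFI35 no animal of the 3 stood out, and the lowest values belonged to restricted 2 (5.67 CPM) and control 2 (6.42 CPM).

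Per length of the gene model, the ranking of the members differed between the 3 animals and the rest. Levels between genes are compared here as CPM per kilobase. In restricted 7 the highest levels were 58.8 CPM per kilobase for ISG15, 32.6 for RSAD2, 28.9 for MX1, 26 for IFI6 and 20.9 for OAS1Y. IFIT5 was the 9th there at 13.1 CPM per kilobase and MX2 the 10th at 13. In the other 11 animals the highest median levels were 6.09 CPM per kilobase for IFIT5, 5.47 for IFI35, 4.02 for LGALS3BP and 3.16 for IRF9. These 4 are members with ratios under 3 in each of the 3 animals. ISG15 was the 8th of the 35 members in those 11 animals at 1.93 CPM per kilobase, MX2 the 32nd at 0.213, and OAS2 the last at 0.0699.

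The animals below the ISG15 threshold also differed among themselves. Across the 35 members, the median ratio to the median of the 11 was 1.44 in control 6, 1.18 in restricted 1, 0.857 in restricted 6 and 0.700 in control 3, with the other 7 animals between 0.903 and 1.09. Control 6 had the highest value of the 11 in 16 members and at least 2 times their median in 11 members. Control 3 had the lowest value in 12 members and lay above the median in only 3. The same counts over all tested genes were not made, so whether these animals stand out in the members alone was not tested.

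Within these 11 animals the correlation of the members with ISG15 varied widely. Pooled over all 14 animals a correlation would only restate the split, so Pearson's r and Spearman's rho of log2 CPM were taken over the 11 and are given as a description. Across the 34 other members r ran from -0.53 to 0.84 with a median of 0.48, and it was above 0 for 31 of them. The r of 0.84 was that of OAS2, which was under the filter and had a median of 2 reads in these animals. Spearman's rho ran from -0.65 to 0.84 with a median of 0.38. An r of at least 0.6 was reached by 9 of the 32 tested members other than ISG15, and by 2.94% of the tested genes that are no member, whose median r was 0.0082. ISG15 rested on 6 to 49 reads in these animals, so counting error is part of its spread. The points share libraries and scaling factors.

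The tested members closest to ISG15 came from several roles. For MX1 r was 0.75 and rho 0.655, for RSAD2 both were 0.76, for UBA7 they were 0.74 and 0.75, for PARP9 0.71 and 0.84, and for IRF9 0.70 and 0.63. Without restricted 3 and control 6, the animals farthest from the median of ISG15, r over the remaining 9 was 0.70 for MX1, 0.825 for RSAD2, 0.68 for UBA7, 0.84 for PARP9 and 0.59 for IRF9. Other members depended on those animals. For IFI44 r was 0.78 with all 11 and 0.32 without them, and for MX2 0.61 and 0.16. Over the 34 members the median r was then 0.33, and 27 were above 0. The members with negative r in the 11 animals were TRIM25 (-0.53), LGALS3BP (-0.37) and IFI35 (-0.06), which are also members that overlapped between the 3 animals and the rest. Over the 528 pairs of tested members the median r was 0.29, and 81.4% of pairs were above 0.

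**Figure D3:**
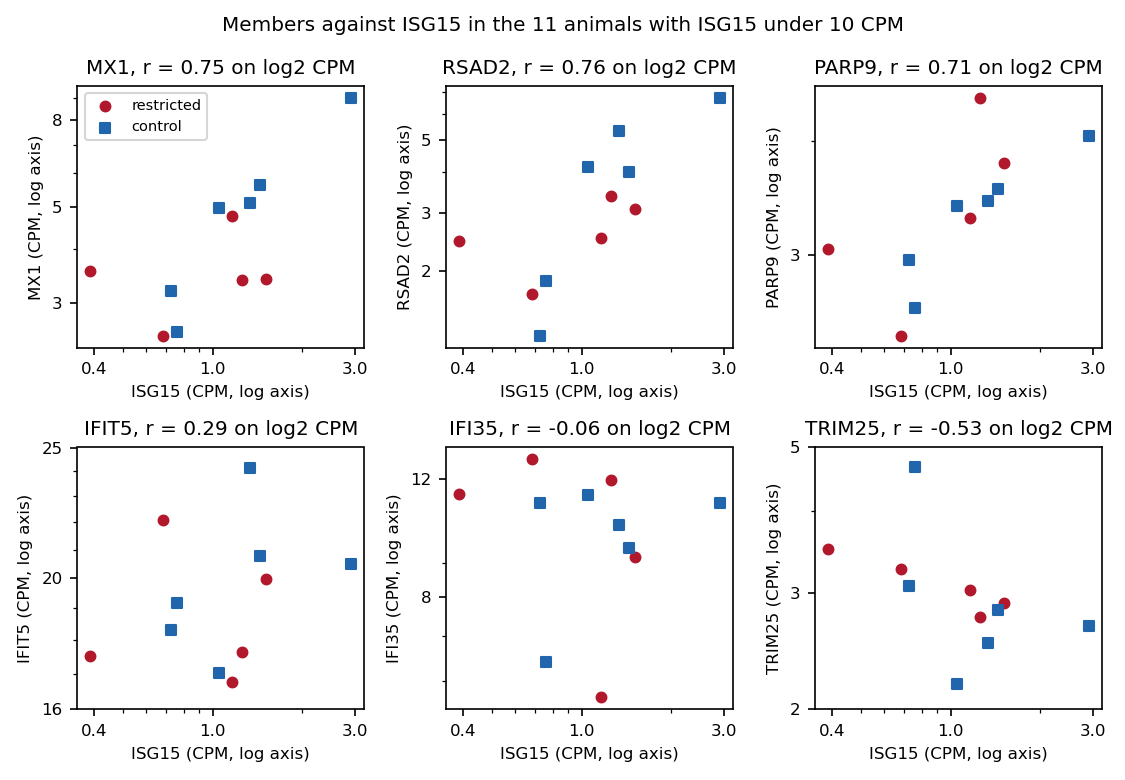
Each panel plots 1 member against ISG15 in the 11 animals with ISG15 under 10 CPM, both in CPM on log axes, with restricted animals as red circles and control animals as blue squares. MX1, RSAD2 and PARP9 in the upper row have r of 0.75, 0.76 and 0.71, while IFIT5, IFI35 and TRIM25 in the lower row have 0.29, -0.06 and -0.53.

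Members that lie side by side in the genome were compared by gene order alone, in the RefSeq annotation of the assembly ARS-UCD2.0, which is a later build than that of the counts. Of the 35 members 33 were found there, and 15 of them had another member within 5 protein-coding genes. These were the groups of MX1 and MX2, of OAS1X, OAS1Y and OAS2, of IFIT2, IFIT3 and IFIT5, of RSAD2 and CMPK2, of IFI44 and IFI44L, and of PARP9, DTX3L and PARP14. The other 18 had none that near. Ratios within a group were unequal in most of them, as in RSAD2 and CMPK2 above.

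The wider pathway was read from lists of genes around the members. Of 21 interferon ligand symbols only IFNK and IFNG had a row with reads, each with 3 reads over all 14 animals, so neither was tested. The other symbols were not analysed here. Of the 6 receptor genes, all were tested and in all 6 the 3 animals overlapped with the rest. Nearly all genes overlapped in this way. Of the 12187 tested genes, 94 (0.771%) had the 3 animals all above the rest and 80 all below, so the overlap is no trait of the receptors. IFNAR1 was at 6.28 CPM in restricted 7, 8.67 in control 7 and 7.46 in restricted 4, against 6.18 to 9.47 CPM in the other 11, and IFNAR2 at 4.53, 4.53 and 4.49 CPM, against 2.58 to 4.99 CPM. The interferon gamma receptor chains IFNGR1 and IFNGR2 were at 30.2, 31.4 and 33.5 CPM and at 30.5, 33.9 and 25.8 CPM, against 24.6 to 37.9 CPM and 24.5 to 46.6 CPM. IFNLR1 and IL10RB, the chains of the interferon lambda receptor, were at 2.39 to 5.83 CPM and 4.77 to 7.42 CPM in the 3 animals, against 1.39 to 6.39 CPM and 4.45 to 6.77 CPM.

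The kinases JAK1, TYK2 and JAK2 and the transcription factor STAT3, outside the members, overlapped in the same way. JAK1 was at 151, 155 and 150 CPM in restricted 7, control 7 and restricted 4, against 138 to 176 CPM in the other 11, and TYK2 at 19.2, 17.7 and 18 CPM, against 17.4 to 26.4 CPM. JAK2 lay at 17.6 to 20.5 CPM against 17.8 to 24.7 CPM, and STAT3 at 98.5 to 113 CPM against 92.7 to 110 CPM. None of the 12 tested sensors, adaptors and induction factors outside the members, such as MAVS, TBK1 and IRF3, had the 3 animals all above the rest. Neither did any of the 11 tested negative regulators, such as SOCS3 and PTPN2. The share over all tested genes was 0.771%, so lists this short would usually hold none.

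Among 21 tested targets of IRF1 and interferon gamma, 3 had the 3 animals all above the rest, against 0.771% of all tested genes. They were GBP4 and GBP5, guanylate-binding proteins that attack intracellular pathogens, and IDO1, which degrades tryptophan. GBP4 was at 4.13, 5.28 and 5.80 CPM in restricted 7, control 7 and restricted 4, against 0.259 to 2.16 CPM with a median of 1.05 in the other 11. GBP5 was at 10.1, 7.35 and 3.80 CPM, against 1.16 to 3.01 CPM, and IDO1 at 35.9, 25.5 and 21.8 CPM, against 2.90 to 14.6 CPM. In GBP4 restricted 4 was the highest and in the other 2 restricted 7 was. IRF1 itself overlapped, at 21.8, 13.7 and 19.9 CPM against 6.60 to 14.2 CPM, and so did B2M, the light chain of MHC class I, at 156, 161 and 128 CPM against 132 to 186 CPM.

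Of 50 tested further interferon-stimulated genes outside the members, 14 had the pattern, against 0.771% of all tested genes. ZNFX1, an RNA helicase-like sensor, was at 68.9, 45 and 35.6 CPM in restricted 7, control 7 and restricted 4, against 11.1 to 17.4 CPM with a median of 14.5 in the other 11. PARP12 was at 13.9, 11.9 and 9.12 CPM, against 2.17 to 3.79 CPM, and IFITM1, which blocks viral entry, at 13.2, 10.8 and 6.49 CPM, against 0.630 to 3.06 CPM. IFI27 was at 19.8, 17 and 8.01 CPM, against 0.519 to 6.85 CPM with a median of 1.26, and EPSTI1 at 13.9, 9.99 and 7.46 CPM, against 1.56 to 4.58 CPM. In restricted 7 the ratio to the median of the others was 15.8 for IFI27, 12 for OAS1Z and between 2.02 and 6.14 for the other 12, which were ZNFX1, PARP12, IFITM1, EPSTI1, ADAR, LGALS9, PML, TRANK1, RTP4, HERC5, PARP10 and MOV10. No tested gene of any list had the 3 animals all below the rest. The median ratio of the 33 tested members was 6.01 in restricted 7, 4.13 in control 7 and 2.79 in restricted 4, and that of these 50 genes was 1.43, 1.44 and 1.30.

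**Figure D4:**
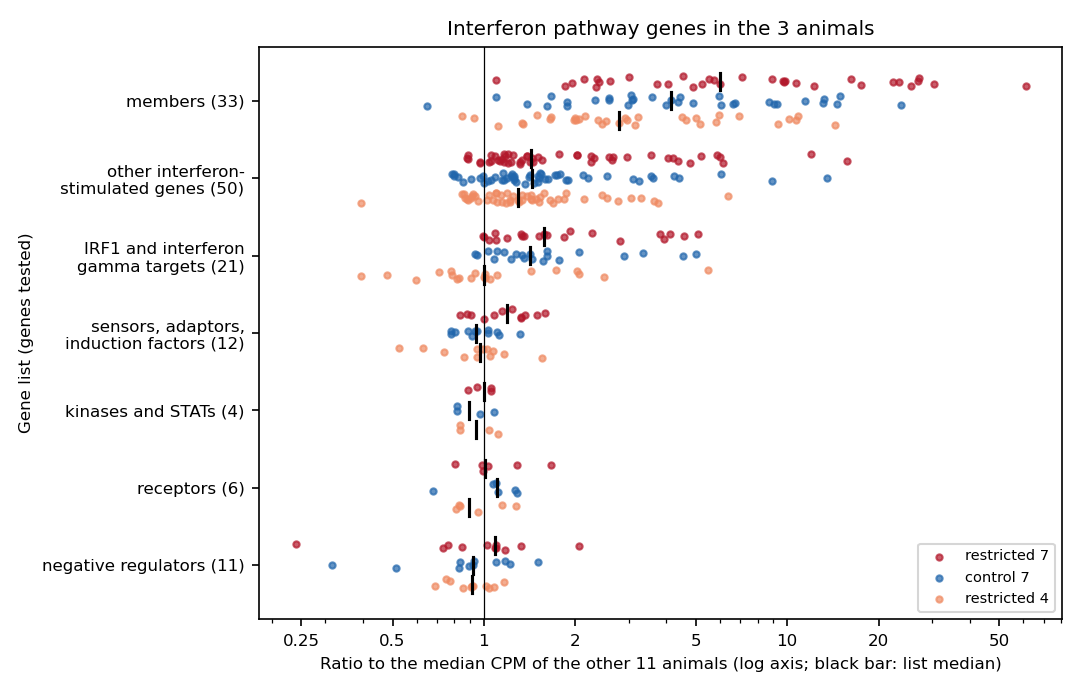
Each point is 1 tested gene of a list, plotted as its CPM in restricted 7, control 7 or restricted 4 over the median of the other 11 animals on a log axis, and black bars mark list medians. The members spread to the right, with medians of 6.01, 4.13 and 2.79, while the receptors, kinases and negative regulators lie around 1.

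Of the 94 tested genes with the 3 animals on top, 28 were members, 17 were on the lists and 49 were on neither. With 0.5 CPM added to both, the lowest of the 3 was at least 2 times the highest of the other 11 in 14 genes, of which 11 were members and 2, PARP12 and ZNFX1, were on the lists. Among tested genes outside members and lists, the 10 with the highest such ratio included 6 rows without a symbol. The table describes the leading one (ENSBTAG00000022489) as the ubiquitin ligase RNF213, and it was at 55.5 CPM in restricted 7, 33.1 in control 7 and 22.4 in restricted 4, against 3.50 to 10.3 CPM in the other 11. A row (ENSBTAG00000053806) described as bone marrow stromal antigen 2, the protein that BST2 encodes and that tethers budding virus to the cell, was also among them. It was at 11.4, 6.35 and 2.14 CPM, against 0.544 to 1.58 CPM with a median of 1.13, and it is not counted as a member because the rule goes by symbol. Of the other 4 rows without a symbol, 3 were described as interferon gamma inducible protein 16, guanylate-binding protein 1 and guanylate-binding protein 4, and 1 had no description. The 4 with a symbol were SP140L, FGB (fibrinogen beta chain), PLSCR2 and C4A (complement C4), with ratios in restricted 7 of 2.45, 7.07, 2.39 and 2.03.

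Markers of other cell types were read in the same 3 animals, since in bulk muscle a larger number of responding cells and more RNA per cell cannot be told apart. In none of 10 marker lists did any gene found have the 3 animals all above or all below the rest. Of the 12187 tested genes, only 94 (0.771%) lay all above and 80 all below, so this overlap is no trait of the markers. The summed level of the 12 macrophage and monocyte markers was 42.9 CPM in restricted 7, 33.2 in control 7 and 21.7 in restricted 4, against 16.1 to 36.1 CPM with a median of 22.5 in the other 11. The 12 T and NK cell markers summed to 14.3, 11.4 and 4.63 CPM, against 3.998 to 15.4 CPM, and the 7 B and plasma cell markers to 15.2, 11.8 and 9.05 CPM, against 5.68 to 12.3 CPM. Restricted 7 was thus above all others in the macrophage and B cell sums, and restricted 4 lay near or below the medians of 22.5, 7.87 and 8.84 CPM. JCHAIN alone gave 14.5, 11.1 and 8.15 CPM of the B and plasma cell sums in restricted 7, control 7 and restricted 4. Restricted 7 was also highest in the fibroblast sum (1136 CPM against 382 to 980 CPM in the 11) and the adipocyte sum (330 CPM against 124 to 283 CPM). The 5 plasmacytoid dendritic cell markers found summed to 8.66, 7.10 and 6.22 CPM, against 4.58 to 9.75 CPM, with LILRA4 and GZMB at 3 reads or fewer in every animal. TCF4 alone gave 8.04, 6.47 and 5.18 CPM of these sums, against 3.61 to 8.81 CPM in the other 11, so they mostly follow that gene. The neutrophil sum was 1.41, 1.32 and 1.24 CPM, against 0.136 to 1.51 CPM, with CXCR2 and MMP9 at 3 reads or fewer in every animal. The endothelial sum was 197, 195 and 207 CPM against 164 to 275 CPM, and the erythroid sum 1.19, 2.33 and 2.14 CPM against 0.204 to 19.97 CPM. The part of these cells in the member values was not tested.

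The study itself compared the offspring of restricted and control dams, and by that comparison the members did not separate. In the quasi-likelihood fit of edgeR, adjusted by Benjamini-Hochberg over all tested genes, 0 of the 33 tested members passed, as did 0 of the 12187 tested genes (0.0%). At an unadjusted p under 0.05 there were again 0 members, with 518 of all genes (4.25%). The smallest unadjusted p of a member was 0.155, for IFIT3, and the smallest adjusted p was 0.99997. The log2 fold change of restricted over control was above 0 for 30 members and below 0 for STAT2, EIF2AK2 and IFI47, with a median of 0.42 and a range of -0.11 to 1.36, while the median over all tested genes was -0.00079.

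ISG15 ran from 0.389 through a median of 1.26 to 35.4 CPM in the 7 restricted animals, and from 0.725 through 1.33 to 16.9 CPM in the 7 controls. The groups overlapped almost fully, since the lowest and the highest animal were both restricted. The mean was 7.54 ± 13.0 CPM in restricted and 3.59 ± 5.92 CPM in control offspring (SD, n = 7 each), a fold of 2.11 with a 95% interval of 0.529 to 8.45. On log2 CPM the means were 1.30 ± 2.23 in restricted and 0.96 ± 1.51 in control offspring, and the difference of 0.34 had p = 0.788 by exact permutation of the diet labels (two-sided, 3432 assignments). The interval covers both a lower level in restricted offspring and one several times that of the controls.

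The same held for the members with the widest range. MX1 ran from 2.52 through 3.57 to 83.4 CPM in restricted animals and from 2.57 through 5.12 to 46.8 CPM in controls, with means of 19.9 ± 30.9 CPM in restricted and 11.05 ± 15.9 CPM in control offspring (SD, n = 7 each) and a log2 fold change of 0.86. RSAD2 averaged 15.9 ± 30.2 CPM in restricted and 7.18 ± 8.92 CPM in control offspring, a log2 fold change of 1.15. The highest, 1.36 for MX2, had a 95% interval of -0.95 to 3.66. For each of them the SD exceeded the mean in both groups. Members with a narrow range had narrow intervals, as in IFIT5, at 23.4 ± 8.82 CPM in restricted and 21.5 ± 4.71 CPM in control offspring with a log2 fold change of 0.12 (-0.29 to 0.53), and IFI35 at 0.02 (-0.33 to 0.37). The fitted biological coefficient of variation within groups had a median of 0.656 over the members and 0.156 over all tested genes, and 0.804% of tested genes exceeded the median of the members.

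The direction above 0 rested on restricted 7, while control 7 pulled the other way. Without restricted 7, 29 of the 33 members had a log2 fold change below 0 and the median was -0.23. Without control 7, 32 were above 0, with a median of 0.98. By edgeR 11 members then had an unadjusted p under 0.05, beside 532 of the 12250 genes tested in that fit. The smallest unadjusted p of a member was 0.00765, with adjusted p-values of 0.999 by edgeR. Control 7 was itself picked by its ISG15 level, so this count is a description. Without all 3 animals, which were selected on ISG15, 23 members were below 0 and 10 above, with a median of -0.10 and a range of -0.94 for OAS1X to 0.21 for IFIT1. The smallest unadjusted p was then 0.0531, for HERC6, at -0.47 log2 and with an adjusted p of 0.958 by edgeR. The plot of fold changes by diet shows both fits.

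**Figure D5:**
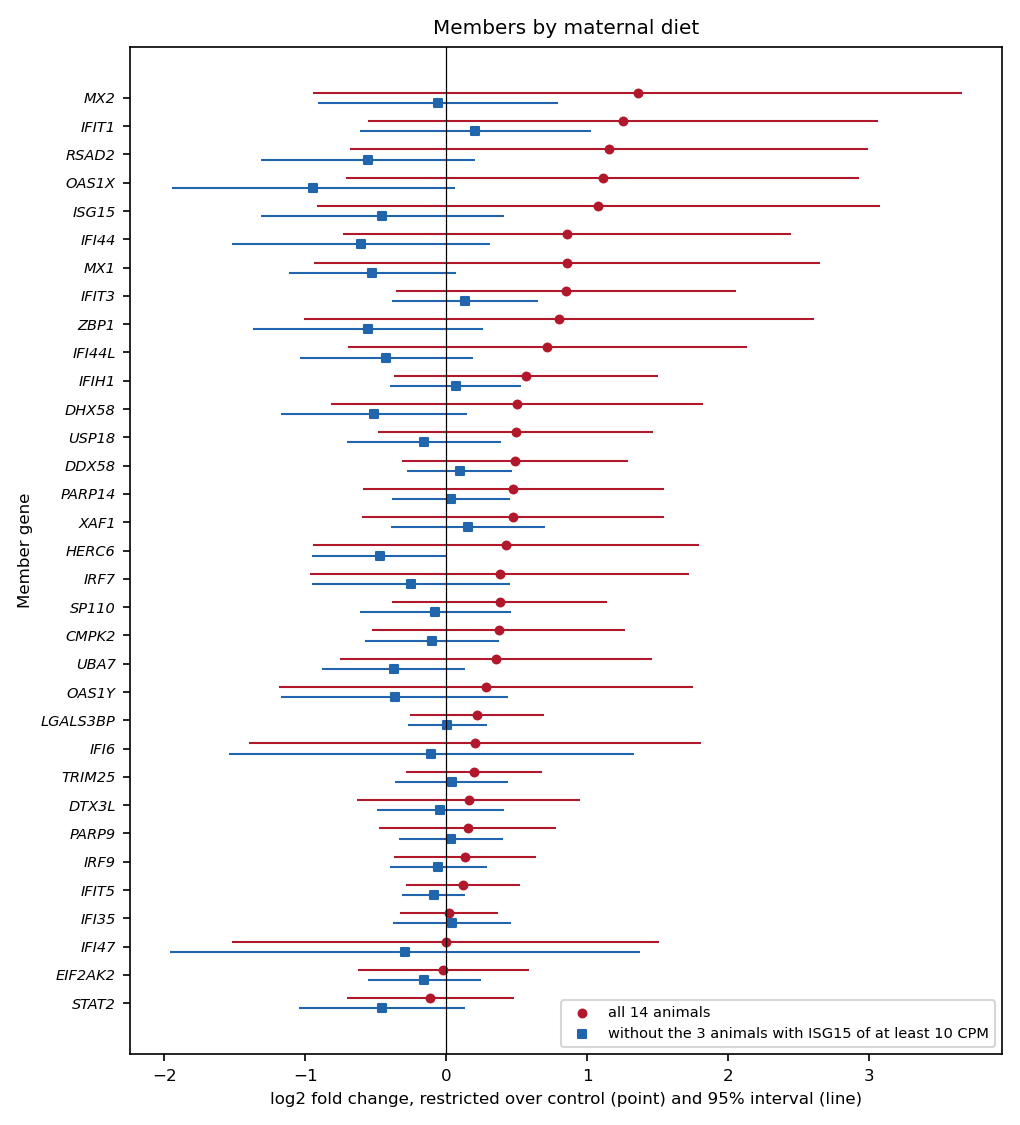
Points are the log2 fold change of restricted over control for each tested member and lines the 95% intervals of the edgeR fit, with all 14 animals in red and without the 3 animals with ISG15 of at least 10 CPM in blue. All red lines cross 0, from MX2 at 1.36 to STAT2 at -0.11, and the blue points lie closer to 0 or below it with shorter lines for most members.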

How the data were processed

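The deposited table holds a whole-number read count for each gene and animal, which the authors had not normalized. Per the submitters' processing notes, FastQC, HISAT2, featureCounts and edgeR were used with the build ARS-UCD1.2. The sources used here do not state tool versions, strand setting, annotation release or the treatment of multi-mapping reads. Reads of a gene and of one overlapping or antisense to it therefore cannot be told apart. Per the labels, total RNA was treated with DNase and column purified. The deposited table also gives a gene model length in bases, used for CPM per kilobase (1000 bases).

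Groups came from the treatment label. Each sample was taken as 1 animal. The labels do not say whether animals were otherwise related. Replicate numbers follow sample order and pair nothing. The fit used edgeR 4.0.16 under R 4.3.3. Low genes were removed with filterByExpr (minimum count 10, minimum total 15) and libraries scaled with TMM factors of 0.9488 to 1.106. The diets were compared by the quasi-likelihood F test without covariates, adjusted by Benjamini-Hochberg over 12187 genes at 0.05. CPM are counts over the scaled library size, so that 1 CPM was 13.27 to 18.05 reads. Log2 CPM used a prior count of 2. DESeq2 1.42.0, other scalings, no filter, title letters as covariates, thresholds on ISG15 and left-out animals were tried as alternatives. No library was a copy of another: between any 2 of them the chi-square per degree of freedom was at least 12.8. Intervals and bounds cover counting error or the spread between these animals only.

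The members and gene lists were chosen with earlier results of these data known. The genes named are all members, listed genes whose 3 animals lay all above the others, the receptors, the kinases and STAT3, and the 10 other genes with the highest ratio of the lowest of the 3 animals to the highest of the rest (0.5 CPM added). IRF1, B2M, UBE2L6 and the examples MAVS, TBK1, IRF3, SOCS3 and PTPN2 were added after their values were seen. So were the untested genes in the closing section. Symbols were taken from the table. Promoter and protein sequences were not used here, and no coordinates are given because the annotation supplied is of another build.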

Additional observations from a re-analysis of the deposited data

Results flagged for a closer look

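Within each diet group of 7 animals, 1 animal stood far from the nearest of the others, by Dixon's test at the 95% level on log2 CPM, in 16 of 70 combinations of member and group. All 16 concerned tested members, which made 66 of the combinations. The same criterion was met by 5.74% of the 24374 combinations over all tested genes. Chance flags about 1 in 20 such groups, and the members are not independent of each other. In 11 of the 16, control 7 was the highest of the controls. Control 7, like restricted 7 and restricted 4, was picked out by its ISG15 level, so these gaps draw on the choice of animals and support nothing. Its log2 CPM was 5.55 for MX1, 4.43 for MX2, 4.41 for HERC6, 4.09 for ISG15, 3.69 for DTX3L and 3.46 for IFIT1. It was 3.15 for PARP9, 2.75 for ZBP1, 2.65 for IRF7, 2.52 for IFIT3 and 2.26 for XAF1. Among the restricted animals, where restricted 4 was also high in most members, restricted 7 stood apart in LGALS3BP (4.94) and TRIM25 (2.80).

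The other 3 concerned low values. IFI35 was lowest at 2.54 in restricted 2 among the restricted animals and at 2.71 in control 2 among the controls. IFI47 was lowest in control 5, at -2.98, which had 0 reads of it.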

How the results depend on the processing

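No member passed the adjusted threshold between diets under any alternative run, and of all genes DESeq2 called 1, which is no member, where edgeR called 0 in every fit. Leaving out 1 animal gave 0 to 11 members at an unadjusted p under 0.05 by edgeR. The 11 came without control 7, where 532 of the 12250 genes tested also had such a p. With 1 animal left out, the log2 fold change of ISG15 ran from -0.32 (without restricted 7) to 2.46 (without control 7). Without the 3 animals with ISG15 of at least 10 CPM it was -0.45. ISG15 was 0.81 with the last and 0.83 with the first title letter as a covariate, against 1.08, and RSAD2 was 0.51 with the last, against 1.15. Over the left-out animals MX1 ran from -0.24 to 1.97, RSAD2 from -0.66 to 2.04, IFIT5 from -0.076 to 0.23, IFI47 from -0.46 to 0.45, STAT2 from -0.31 to 0.069 and EIF2AK2 from -0.29 to 0.23. Without the 3 animals MX1 was -0.53, OAS1X -0.94, RSAD2 -0.56 and IFIT5 -0.089. IFI47 was 0.017 with the last title letter as a covariate. The cause of these changes was not tested.

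Relative log expression, library size scaling and a threshold of 5 CPM picked the same 3 animals and left the count of separated members at 28, and it was 29 without the filter. At 20 CPM only restricted 7 remained, and 1144 tested genes had their highest value there. This count cannot be set against the 94 genes for the 3 animals, since 1 animal is on top more often than 3 together. No paired analysis was possible because the replicate numbers follow sample order and pair nothing. At this depth a level of 1 CPM rests on 13.27 to 18.05 reads.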

Other observations

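Listed genes under the filter on low counts had the 3 animals above the rest in SLFN11 and ISG20. SLFN11, a restriction factor with 300 reads over all animals, was at 6.23 CPM in restricted 7, 4.90 in control 7 and 1.93 in restricted 4, against 0.0753 to 1.19 CPM with a median of 0.408 in the other 11. ISG20, an RNA exonuclease, was at 0.736, 0.503 and 0.414 CPM, against at most 0.301 CPM, on 50 reads in all. CGAS, the cytosolic DNA sensor, was at 0.962, 0.377 and 0.760 CPM, against at most 0.377 CPM, so that control 7 was level with the highest of the others, on 65 reads in all.

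ATF3, a stress-induced repressor on the list of negative regulators, was at 4.30, 5.66 and 13.5 CPM in restricted 7, control 7 and restricted 4, against 8.39 to 104 CPM with a median of 17.9 in the other 11. It was picked out after its values were seen.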
